A study of Sus scrofa domesticus with 6 samples.

Results

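Homeobox and T-box genes encode transcription factors that give cells of the embryo their position, and 74 of them were followed here in the growing condyle of the lower jaw. The members are the rows of the deposited gene table whose name belongs to the HOX, DLX, MSX, LHX, BARX, ALX, PRRX, PITX, sine oculis (SIX2, SIX4 and others), TBX, MEIS, PBX or SHOX families or is GSC, HAND1 or HAND2, with 1 row per name. They are 74 of the table's 25322 rows. HAND1 and HAND2, which belong to neither protein class, encode basic helix-loop-helix factors of the same patterning network. Of the members, 33 were HOX genes, 10 T-box genes, 8 other homeobox genes of mesenchyme (ALX1, BARX1, BARX2, GSC, MSX1, PRRX2, SHOX and SHOX2), 7 LIM homeobox (LHX) genes, 5 TALE genes (among them MEIS3, PBX2, PBX3 and PBX4), 4 sine oculis genes (among them SIX2, SIX4 and SIX6), 3 DLX genes, 2 PITX genes and 2 HAND genes. A further 22 names of these families were not analysed here, among them HOXA9, HOXA10, HOXA13, HOXC9, HOXC11, HOXD11, DLX4, DLX5, DLX6, MSX2, LHX3, ALX4, PRRX1, PITX1, SIX3, SIX5, TBX1, TBX6, TBX10, MEIS1 and MEIS2.

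The libraries came from the mandibular condyle of miniature pig embryos at 45 days (3 libraries) and 85 days (3 libraries). All carry the tissue label cartilage, a source label of chondrocytes and osteocytes, a cell type label of primary cells and the same treatment label, which refers to the ossification of cartilage; the protocol describes ground tissue. The sources used here give no strain, sex or litter, and do not say whether embryos were pooled. Nor do the labels tie each library to its own animal: the p-values cover the spread among these libraries, which may be technical.

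Most jaw mesenchyme derives from cranial neural crest cells that enter the pharyngeal arch of the jaw without HOX expression. In that arch endothelin signalling switches on some of the DLX genes, HAND2 and GSC toward the lower jaw. FGF and BMP signals from the oral epithelium set up LHX6, LHX8, BARX1 and MSX1. HOX genes mark the arches behind it and the trunk. PBX and MEIS proteins bind DNA together with HOX proteins and with many other homeodomain proteins.

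Total counts ran from 12546729 to 16559616 per library. Day 85 replicate 2 stood apart: over genes with at least 10 counts in every library, Spearman's rho across genes was 0.924 and 0.935 between it and day 85 replicates 1 and 3, against 0.981 between those and 0.974 to 0.984 within day 45. The tissue label was checked against marker lists. The summed level of 13 chondrocyte markers was 19190, 18150 and 15320 CPM (read counts scaled to a common library size) at day 45 against 1942, 6858 and 3691 CPM at day 85. MATN1, a cartilage matrilin, had the lowest log2 fold change of these markers (-5.43). Its day 85 levels were 0.155, 14.1 and 0.132 CPM, so this marker was near 0 in replicates 1 and 3. Other markers differed: ACAN was at 233, 947 and 990 CPM at day 85, and COMP (-0.74) and SOX6 (0.03) had overlapping ages. In edgeR 3 of the 13 were lower at an adjusted p under 0.05, beside 2.66% of all tested genes. An unadjusted p under 0.05 was held by 11, beside 29.1% of all tested genes. DESeq2 called 10, beside 23.3% of all genes with an adjusted p, and limma-voom called 4. The summed level of 10 skeletal muscle markers was 6752, 3478 and 7903 CPM at day 45 against 28650, 2203 and 25620 CPM at day 85. Day 85 replicate 2 was also the highest library for summed macrophage and osteoclast markers, at 13820 CPM against 2137 and 2495 CPM in the other two of its age and 347 to 1395 CPM at day 45. In bulk tissue, fewer cells of a type and less RNA per cell cannot be told apart. Values of 3 libraries are given in the order of replicates 1, 2 and 3 throughout, and each fold change divides day 85 by day 45, from n = 3 libraries at each age.

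Between the ages, LHX6 rose and PBX3 and TBX22 fell, and the other tested members did not pass the test. Of the 74 members, 38 had enough counts to be tested, and 1 rose and 2 fell at an adjusted p under 0.05 in edgeR's quasi-likelihood test. That is 7.89% of the tested members, near the 6.56% of all 15022 tested genes that passed (3.9% higher and 2.66% lower). Negative log2 fold changes were held by 22 tested members and positive ones by 16, with a median of -0.21, while the median over all tested genes was 0.02. The libraries of the ages did not overlap for 12 tested members, 31.6% of them, against 35.0% of all tested genes. In 4 of these the day 85 libraries lay higher (HOXD3, HOXD4, HOXD8 and LHX6) and in 8 lower (ALX1, BARX1, DLX1, GSC, HAND2, PBX3, PBX4 and TBX22). With library totals in place of TMM scaling, 437 genes of the whole table were higher and 598 lower, rather than 586 and 400.

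These counts rest on few libraries. In edgeR 0 members were called without day 45 replicate 1, day 45 replicate 2, day 85 replicate 1 or day 85 replicate 3. These fits had 11, 9, 11 and 8 members at an unadjusted p under 0.05, beside 2916, 3056, 3590 and 3426 of all genes. They called 4 of 15290, 0 of 15389, 16 of 15309 and 118 of 15215 tested genes, so calls were lost across the whole table. With all libraries, 14 of 38 members had such a p, beside 29.1% of all tested genes. Without day 45 replicate 3 the member called was 1, HAND2, where 20 of 15348 tested genes passed. Without day 85 replicate 2 the members called were 12 (5 higher and 7 lower), where 22.3% of all tested genes passed. DESeq2 on all libraries also called 12 members (3 higher and 9 lower), beside 23.3% of all genes with an adjusted p, and limma-voom called 2.

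**Figure D1:**
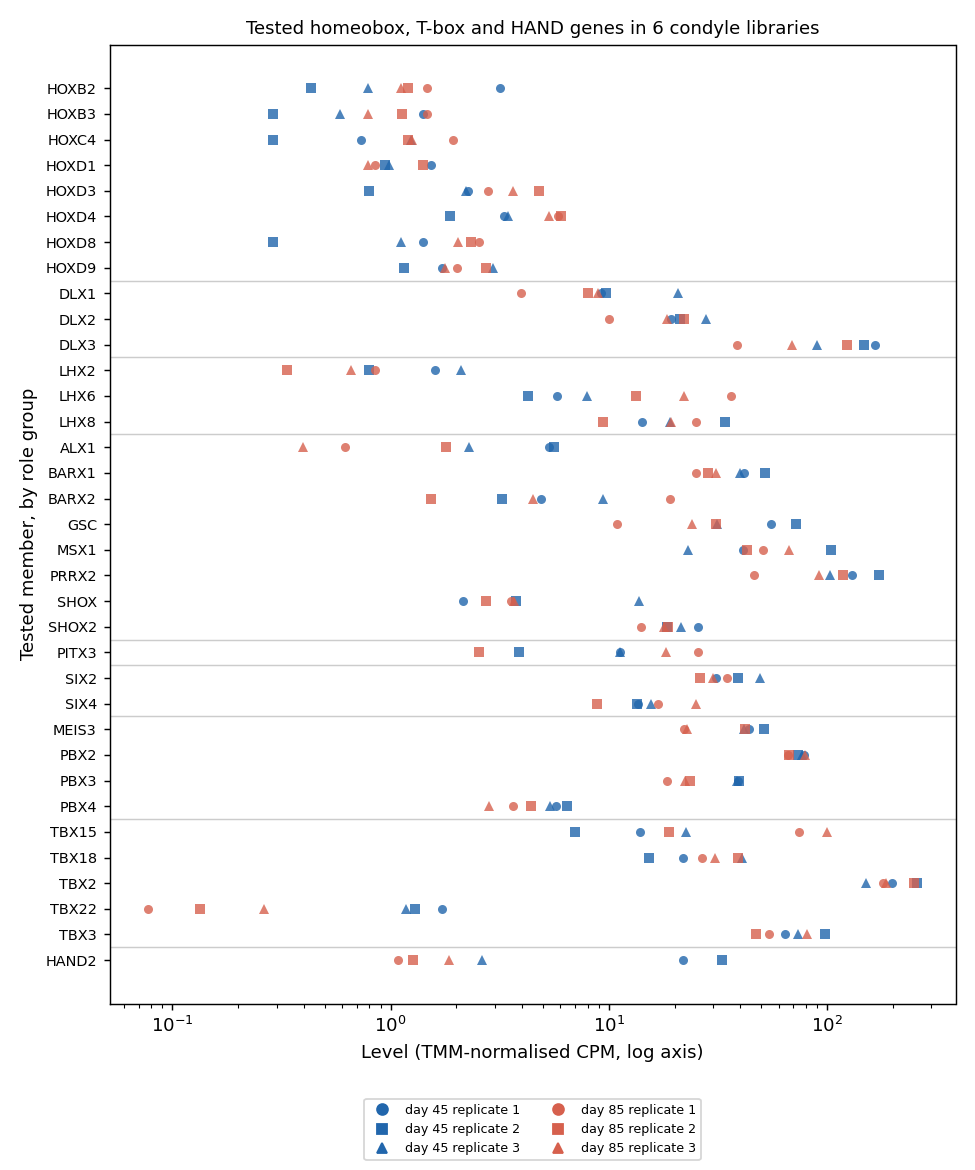
Level of tested members in each library, in TMM-normalised CPM on a log axis, with 1 point per library (blue for day 45, red for day 85, point shape for the replicate) and grey lines between role groups. HOX genes sit below 7 CPM in every library, whereas TBX2 lies above 100 CPM in each; the red points of LHX6 lie to the right of its blue points and those of TBX22 and PBX3 to the left.

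The levels of the members spanned a wide range. Compared per length, as deposited FPKM averaged over the 6 libraries, PRRX2 was the most abundant member at 89.0, followed by TBX2 at 57.7, GSC at 48.0, BARX1 at 47.5, DLX3 at 40.5 and SIX2 at 39.2. Of the 30 genes on a list of jaw and face factors, 21 had a row. Their summed FPKM was 538, 670 and 515 at day 45 against 420, 422 and 499 at day 85. The summed FPKM of the 33 HOX genes was 16.4, 5.92 and 15.7 at day 45 against 20.2, 19.6 and 17.6 at day 85, and no HOX gene averaged above 5.56. In every library the jaw factors together stood far above the HOX genes together.

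LHX6 is a LIM homeobox factor of oral and jaw mesenchyme. The deposited table places it on chromosome 1 from 294597312 to 294621705; the sources used here name no genome build for these coordinates. Its level was 5.82, 4.26 and 7.92 CPM at day 45 against 36.4, 13.3 and 22.02 CPM at day 85. All 3 day 85 libraries lay above the day 45 libraries, with replicate 2 the lowest of them. LHX6 rose 3.98-fold (log2 fold change 1.99 with SE 0.41, adjusted p = 0.0433, edgeR). The call held without day 85 replicate 2 (adjusted p = 0.00605) and was lost without any other library (0.0836 to 0.174), with library totals as the scaling (0.0548), in limma-voom (0.0587) and on log2 FPKM (0.0576 and 0.0615 with pseudocounts of 0.1 and 1), while the log2 fold change stayed between 1.54 and 2.28 in the fits that left out 1 library.

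LHX8, the close relative of LHX6 that acts with it in jaw and tooth mesenchyme, was at 14.2, 34.0 and 19.1 CPM at day 45 against 25.1, 9.40 and 19.25 CPM at day 85. Its ages overlapped, and it did not pass (log2 fold change -0.32 with SE 0.45, adjusted p = 0.664, edgeR). Per length, LHX8 stood at 13.5 ± 5.74 FPKM and LHX6 at 1.89 ± 0.687 FPKM at day 45, and at 10.8 ± 5.17 and 7.41 ± 3.92 FPKM at day 85 (SD, n = 3). The difference between the responses of LHX6 and LHX8 was not tested. LHX2, known from limb and forebrain, was at 1.59, 0.793 and 2.09 CPM and then at 0.850, 0.333 and 0.659 CPM, with overlapping ages (adjusted p = 0.147). The other 4 LHX genes with a row, LHX1, LHX4, LHX5 and LHX9, had 0 to 33 counts over all libraries and were not tested.

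TBX22, a T-box repressor known for its part in palate formation, lies on chromosome X at 73272832 to 73280739. It had 28, 18 and 18 counts at day 45 and 1, 2 and 4 counts at day 85, which are 1.71, 1.30 and 1.18 CPM and then 0.0773, 0.133 and 0.264 CPM. The ages did not overlap. TBX22 fell 8.29-fold (log2 fold change -3.05 with SE 0.47, adjusted p = 0.0247, edgeR), on few counts and at a low level: its mean of 0.416 FPKM was the lowest of the tested members. The filter on low counts asks for 3 libraries over 0.675 CPM, and 31 of the 38 tested members met it in each age alone. TBX22, ALX1 and LHX2 met it through day 45 alone, and HOXB2, HOXB3, HOXC4 and HOXD8 through day 85 alone, so their place in the test leans on the age where they are high. TBX22 had no day 85 library over that level and had to differ. The call held without day 85 replicate 2 (adjusted p = 0.0159) and was lost without any other library (0.0514 to 0.124).

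The other T-box genes divided by level. TBX2, a repressor active in many growing tissues, was at 198, 258 and 151 CPM at day 45 against 180, 251 and 186 CPM at day 85, with overlapping ages (log2 fold change 0.02 with SE 0.23, adjusted p = 0.961, edgeR), and the sign of this value changed with the scaling. TBX3, its close relative, was at 64.4, 97.8 and 73.5 CPM and then at 54.0, 47.1 and 80.6 CPM, again overlapping (adjusted p = 0.349). TBX4 and TBX5, the T-box genes known for the hindlimb and the forelimb, lie beside them on the table's coordinates. TBX4, 73.0 kb from TBX2 on chromosome 12, had 13, 22 and 2 counts at day 45 and 1, 2 and 3 at day 85. TBX5, 184.9 kb from TBX3 on chromosome 14, had 4 counts in all libraries together. Neither was tested. Per length, TBX4 lay below TBX2 and TBX5 below TBX3.

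TBX15, a T-box factor of skeletal and muscle development, was at 13.96, 6.996 and 22.6 CPM at day 45 against 74.6, 18.9 and 99.6 CPM at day 85. Replicate 2 was the lowest library at each age, and its day 85 value lay below that of day 45 replicate 3. TBX15 did not pass (log2 fold change 2.14 with SE 0.69, adjusted p = 0.112, edgeR), and passed without day 85 replicate 2 (2.58, adjusted p = 0.0134) and in DESeq2 (adjusted p = 0.0313). TBX18, known from somites and smooth muscle precursors, was at 21.8, 15.2 and 40.8 CPM and then at 26.7, 39.1 and 30.6 CPM, overlapping (adjusted p = 0.609). TBX19, TBX20 and TBX21 had 10 to 21 counts over all libraries and were not tested.

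PBX3, a TALE cofactor, lies on chromosome 1 at 300208111 to 300433703. It was at 38.9, 39.3 and 38.7 CPM at day 45 against 18.5, 23.5 and 22.2 CPM at day 85. The day 45 libraries lay within 1 CPM of each other, and the day 85 libraries lay clear below them. PBX3 fell 1.82-fold (log2 fold change -0.86 with SE 0.13, adjusted p = 0.0247, edgeR). The call held without day 85 replicate 2 (adjusted p = 0.0067) and was lost without any other library (0.0598 to 0.117), although the log2 fold change stayed between -0.93 and -0.79.

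Its relatives did not pass in edgeR. PBX2, the most abundant TALE gene per length at 27.9 FPKM, was at 78.7, 73.6 and 76.7 CPM and then at 66.1, 67.1 and 79.1 CPM, overlapping (log2 fold change -0.11 with SE 0.12, adjusted p = 0.566). MEIS3, which binds DNA together with PBX proteins, was at 44.0, 51.4 and 41.8 CPM and then at 22.2, 42.0 and 22.8 CPM. Its replicate 2 stood within the day 45 range at day 85, and MEIS3 passed without that library (log2 fold change -1.02, adjusted p = 0.00526) but not with it (-0.66, adjusted p = 0.16) in edgeR. On all libraries DESeq2 called MEIS3 lower (adjusted p = 0.0395). PBX4 did not overlap between the ages and stood at 5.85 ± 0.533 and 3.62 ± 0.782 CPM (SD, n = 3; adjusted p = 0.115 in edgeR and 0.0351 in DESeq2). In edgeR, 1 of 5 TALE genes fell and 4 of 5 had a log2 fold change below 0 (median -0.66). The number that fell was 3 without day 85 replicate 2 and 3 in DESeq2 on all libraries. Over the whole table, edgeR called 2.66% of tested genes lower with all libraries. Without day 85 replicate 2 it called 1528 of 15271 lower, and DESeq2 called 10.8% of genes with an adjusted p lower. Calls thus rose across the whole table and not only among TALE genes.

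**Figure D2:**
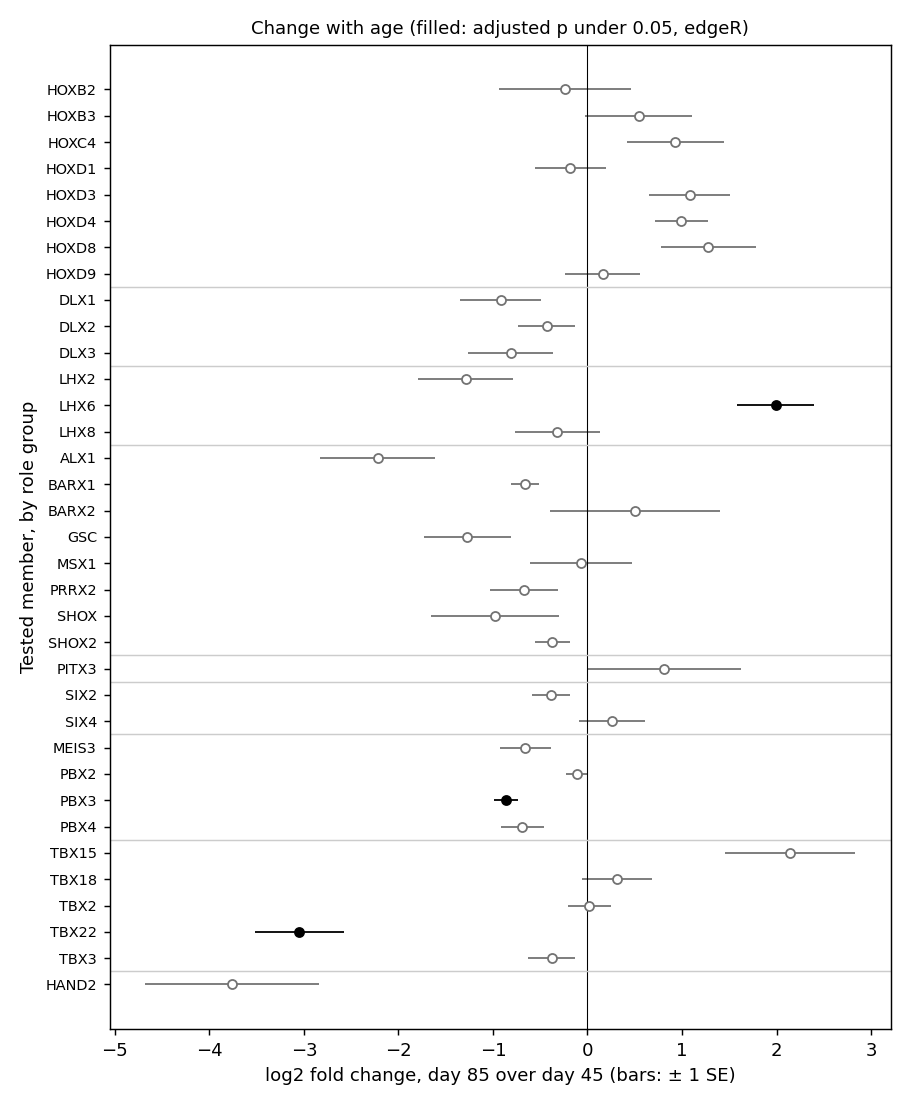
Log2 fold change of tested members, day 85 over day 45, with bars of 1 SE from edgeR; filled points have an adjusted p under 0.05. LHX6 at 1.99, PBX3 at -0.86 and TBX22 at -3.05 are filled, and the larger values of HAND2 (-3.76) and TBX15 (2.14) have wider bars and are open.

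The DLX genes, distal-less homeobox factors that set identity along the jaw's upper to lower axis, had negative log2 fold changes (-0.92, -0.43 and -0.81 for DLX1, DLX2 and DLX3), and 0 of 3 passed in edgeR, with 0 at an unadjusted p under 0.05 and 0 called by DESeq2 or limma-voom. DLX3, known from tooth, hair and bone, was at 166.5, 148 and 90.3 CPM at day 45 against 38.6, 123 and 68.8 CPM at day 85. Day 85 replicate 2 lay above day 45 replicate 3, so the ages overlapped (SE 0.45, adjusted p = 0.276), and without that library DLX3 fell (log2 fold change -1.33, adjusted p = 0.043). DLX1 and DLX2 are neighbours, 35.2 kb apart on chromosome 15. DLX1 was at 9.25, 9.74 and 20.7 CPM and then at 3.94, 7.999 and 8.90 CPM, without overlap (adjusted p = 0.206). DLX2 was at 19.35, 21.2 and 27.9 CPM and then at 10.05, 22.1 and 18.5 CPM, with overlap (adjusted p = 0.373).

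Of the other homeobox genes of mesenchyme, 7 of 8 had a log2 fold change below 0 (median -0.66; the signs of BARX2, MSX1 and SHOX changed between settings), and 0 of 8 passed in edgeR, with 3 lower at an unadjusted p under 0.05. Of all tested genes, 13.3% were lower at such a p. DESeq2 called 3 of the 8 lower, beside 10.8% of all genes with an adjusted p, and limma-voom called 0. BARX1, a factor of the jaw's joint and molar regions, lay closest to the threshold. It was at 41.6, 52.1 and 39.7 CPM at day 45 against 25.1, 28.5 and 30.9 CPM at day 85, with no overlap (log2 fold change -0.66 with SE 0.15, adjusted p = 0.0529). BARX1 passed with library totals as the scaling (adjusted p = 0.0395), in DESeq2 (0.000489) and without day 85 replicate 2 (0.0341), and limma-voom gave 0.0593.

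GSC, goosecoid, a repressor of the lower jaw and ear region, was at 55.6, 72.1 and 31.1 CPM and then at 10.9, 31.0 and 23.9 CPM. The highest day 85 library lay just below the lowest day 45 library (log2 fold change -1.27 with SE 0.46, adjusted p = 0.135, edgeR), and DESeq2 called it lower (adjusted p = 0.00703). PRRX2, a paired-related factor of growing mesenchyme, was at 130.7, 172.5 and 103.4 CPM and then at 46.1, 118 and 91.7 CPM, overlapping (adjusted p = 0.269). ALX1, a factor of the midface, was at 5.33, 5.63 and 2.29 CPM and then at 0.618, 1.80 and 0.396 CPM, without overlap (log2 fold change -2.22 with SE 0.61, adjusted p = 0.0748). Without day 85 replicate 2 its adjusted p was 0.0104, but ALX1 then entered the test through the day 45 libraries alone and had to differ. MSX1, a factor of undifferentiated jaw and tooth mesenchyme, was at 41.1, 104 and 23.0 CPM and then at 50.7, 42.9 and 66.99 CPM. Its day 45 libraries enclosed those of day 85 (adjusted p = 0.949).

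SHOX2, known for its part in the temporomandibular joint and the limb, was at 25.65, 18.4 and 21.5 CPM and then at 13.99, 18.6 and 17.9 CPM, overlapping (adjusted p = 0.228). SHOX, its relative on chromosome X, was at 2.14, 3.75 and 13.8 CPM and then at 3.56, 2.73 and 3.69 CPM. Here 1 day 45 library was high and the other two did not exceed 3.75 CPM (adjusted p = 0.374).

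HAND2, a marker of the lowest, distal part of the jaw arch, had the largest fitted change of the tested members and did not pass in edgeR. It was at 21.9, 33.1 and 2.62 CPM at day 45 against 1.08, 1.27 and 1.85 CPM at day 85. Day 45 replicate 3 stood nearer to the day 85 libraries than to the other two of its age, though above them. The log2 fold change was -3.76 with an SE of 0.92 (adjusted p = 0.0636, edgeR). Without day 45 replicate 3 it was -4.29 and passed (adjusted p = 0.0411). On all libraries DESeq2 called HAND2 lower (adjusted p = 0.000812), and limma-voom did not (adjusted p = 0.197). HAND1 had 2 counts in all libraries together and was not tested.

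Within day 85, several lower members shared an order of libraries with the cartilage markers. Levels of DLX2, DLX3, GSC, MEIS3, PBX3, PRRX2 and SHOX2 were lowest in replicate 1, higher in replicate 3 and highest in replicate 2, which is also the order of the summed chondrocyte markers (1942, 3691 and 6858 CPM). With HOXD3, TBX2 and TBX18 that order was held by 10 of 38 tested members, 26.3%, against 25.0% of all tested genes, so it was as common among the members as elsewhere. The part of the cartilage markers in these results was not tested.

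PITX3 and SIX4 were lowest in replicate 2 within day 85. PITX3, a bicoid-related factor that is also expressed in muscle, was at 11.2, 3.90 and 11.3 CPM at day 45 against 25.7, 2.53 and 18.3 CPM at day 85. Day 85 replicate 2 was the lowest of the 6 libraries and replicates 1 and 3 of that age the highest. PITX3 did not pass (log2 fold change 0.81 with SE 0.81, adjusted p = 0.539, edgeR).

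SIX4, a sine oculis factor of muscle precursors, was at 13.5, 13.4 and 15.6 CPM and then at 16.85, 8.865 and 25.1 CPM, with adjusted p = 0.658. SIX6, known from the eye, had 7, 4 and 3 counts at day 45 and 38, 3 and 15 at day 85 and did not pass the filter on low counts. Both genes were lowest in replicate 2 within day 85. SIX2, a factor of cranial mesenchyme, was at 31.1, 39.2 and 49.1 CPM and then at 34.8, 26.2 and 30.1 CPM, overlapping (adjusted p = 0.241). Without day 85 replicate 2, SIX6 entered the test through the day 85 libraries alone and had to differ (log2 fold change 2.63, adjusted p = 0.0254). Of the PITX and sine oculis genes, 0 passed in edgeR with all libraries, with 0 at an unadjusted p under 0.05 and 0 called by DESeq2 or limma-voom. Without day 85 replicate 2, 1 of 2 PITX genes and 2 of 4 sine oculis genes, SIX6 among them, were called higher. In that fit 12.3% of all tested genes were called higher.

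Within day 85, skeletal muscle markers were lowest in replicate 2, as were PITX3, SIX2, SIX4 and SIX6. At day 45 not all of these genes followed the markers. The muscle sum was lowest in replicate 2 there, whereas SIX6 was lowest in replicate 3 and SIX4 ran only from 13.4 to 15.6 CPM. MYOG, myogenin, was at 106, 46.7 and 133 CPM at day 45 against 257, 17.1 and 205 CPM at day 85, and the summed level of the 10 muscle markers was also lowest in replicate 2 and highest in replicates 1 and 3 of day 85. Of the 10 muscle markers 0 passed in edgeR, with 3 at an unadjusted p under 0.05, beside 29.1% of all tested genes. DESeq2 called 2, beside 23.3% of all genes with an adjusted p, and limma-voom called 0. TBX15 and BARX2, a factor of muscle and epithelium, were likewise lowest in replicate 2 within day 85; BARX2 stood at 19.02, 1.53 and 4.48 CPM there and at 4.90, 3.25 and 9.42 CPM at day 45. LHX6 and LHX8 shared this too. In all, 15 of 38 tested members were lowest in replicate 2 within day 85, 39.5% against 34.0% of all tested genes. The part of muscle in these results was not tested, and the genes set beside the muscle markers here were chosen after their values were seen.

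**Figure D3:**
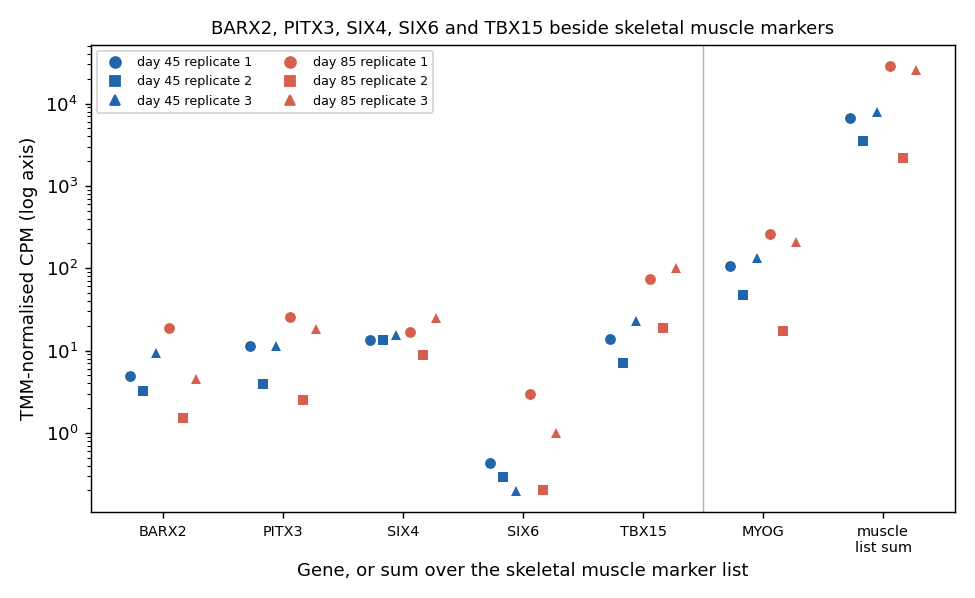
Levels of BARX2, PITX3, SIX4, SIX6 and TBX15 in each library, beside the muscle factor MYOG and the sum over 10 skeletal muscle markers, in TMM-normalised CPM on a log axis; blue points are day 45, red points day 85, and shapes the replicates. In each column the red square, day 85 replicate 2, is the lowest of the 3 red points, at 2.53 CPM for PITX3 and 17.1 CPM for MYOG.

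HOX genes were low, and most did not reach the filter on low counts. Of 33 with a row, 8 passed the filter on low counts, 8 had 0 counts in all libraries (HOXA11, HOXB1, HOXB6, HOXB13, HOXC8, HOXC10, HOXC12 and HOXD12), and the other 17 had 1 to 41 counts in total (among them HOXA2 to HOXA7, HOXB4, HOXB5, HOXB7 to HOXB9, HOXC5, HOXC6, HOXC13, HOXD10 and HOXD13). A count of 0 allows up to 3 counts, which is 0.181 to 0.239 CPM depending on the library, for counting error only. The HOXD cluster, on chromosome 15 at 91361475 to 91457433, held 1076 of the HOX counts, the HOXB cluster 253, the HOXC cluster 110 and the HOXA cluster 95. By position in the cluster, paralogs 1 to 4 held 1084 counts, paralogs 5 to 9 held 422, and paralogs 10 to 13, which mark the distal limb and the rear of the trunk, held 28 over 8 genes.

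The tested HOX genes were HOXB2, HOXB3, HOXC4, HOXD1, HOXD3, HOXD4, HOXD8 and HOXD9. In edgeR 0 of the 8 passed. An unadjusted p under 0.05 was held by 3, each with the higher level at day 85, beside 15.8% of all tested genes. DESeq2 called 1 higher, beside 12.6% of all genes with an adjusted p, and limma-voom called 0. Their median log2 fold change was 0.73, against -0.38 for the 20 tested jaw factors and 0.02 for all tested genes; with no filter on low counts, where 25 HOX genes enter, it was -0.40. Since 4 of the 8 entered through day 85 alone, the median of the tested genes leans toward that age. HOXD4 was at 3.31, 1.88 and 3.47 CPM at day 45 against 5.88, 6.07 and 5.34 CPM at day 85 (log2 fold change 0.99 with SE 0.28, adjusted p = 0.0766). DESeq2 called HOXD4 higher (adjusted p = 0.00669). Its ages did not overlap.

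HOXD8 was at 1.41, 0.289 and 1.11 CPM and then at 2.55, 2.33 and 2.04 CPM (log2 fold change 1.28 with SE 0.50, adjusted p = 0.149), and HOXD3 was at 2.27, 0.793 and 2.22 CPM and then at 2.78, 4.80 and 3.63 CPM (1.08, SE 0.43, adjusted p = 0.157). These genes and HOXD4 had no overlap between the ages, 3 of 8 HOX genes beside 17.4% of all tested genes that were higher in this way. HOXD8 entered the test through day 85 alone, as did HOXB2, HOXB3 and HOXC4. This count therefore leans toward day 85 and is no support for a rise of HOX genes. HOXD9 was at 1.71, 1.15 and 2.94 CPM and then at 2.01, 2.73 and 1.78 CPM, overlapping (adjusted p = 0.811). HOXB2 was at 3.18, 0.433 and 0.785 CPM and then at 1.47, 1.20 and 1.12 CPM, where day 45 replicate 1 is the highest and the other two of that age the lowest (adjusted p = 0.848). Day 45 replicate 2 was the lowest of the 6 libraries for each tested HOX gene but HOXD1.

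Endothelial markers also differed between these libraries. The summed level of 9 endothelial markers was 478, 391 and 638 CPM at day 45, with replicate 2 the lowest. At day 85 it was 1565, 1021 and 1164 CPM. In edgeR 5 of the 9 rose, beside 3.9% of all tested genes. ERG, of the same list, had a log2 fold change of -0.23 (adjusted p = 0.405, edgeR) with overlapping ages. The part of endothelial cells in the HOX values was not tested.

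**Figure D4:**
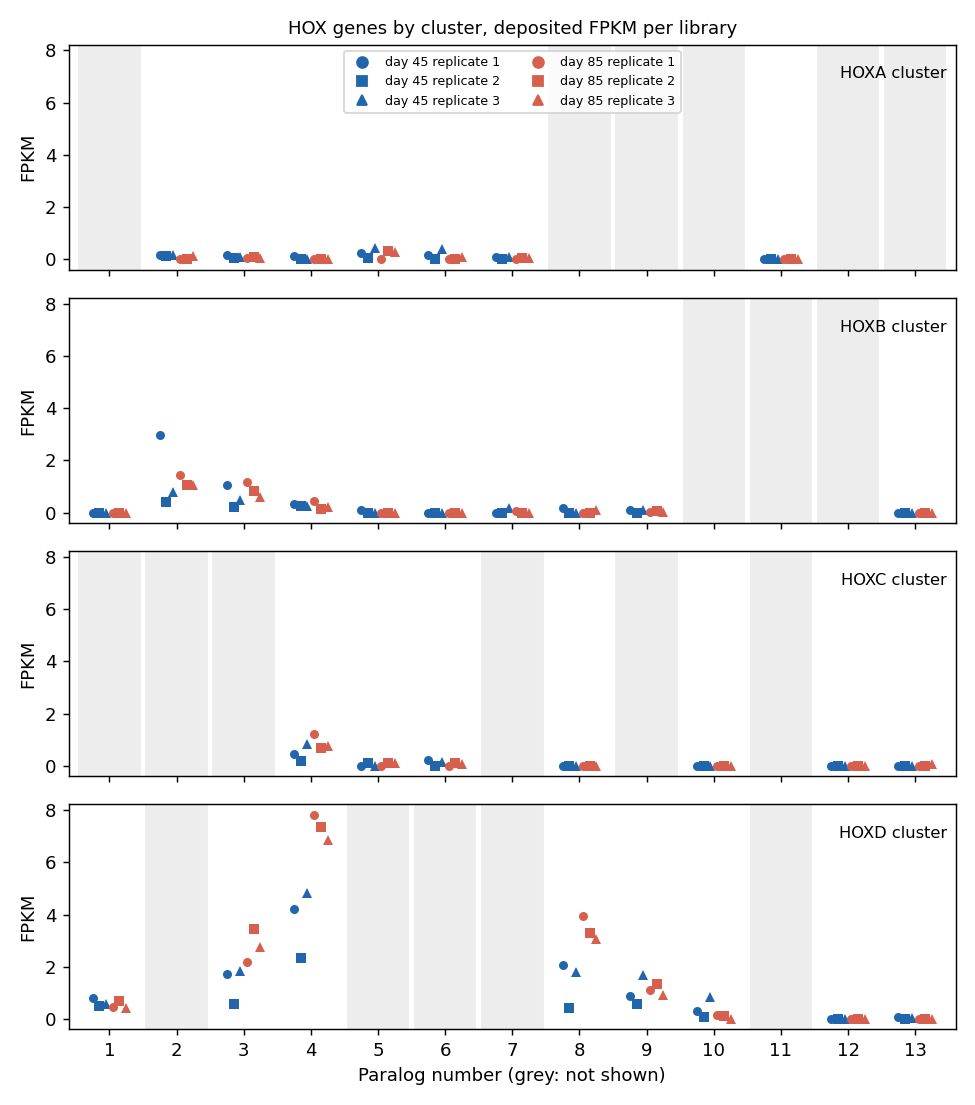
Deposited FPKM of HOX genes in each library, 1 panel per cluster, by paralog number; blue points are day 45, red points day 85, shapes the replicates, and grey bands paralog numbers not shown. The highest points are those of HOXD4, whose mean was 3.79 FPKM at day 45 and 7.34 FPKM at day 85, and paralogs 10 to 13 lie below 1 FPKM in every cluster.

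The signals and partners of these factors were followed with a list of 53 genes, of which 47 had a row and 41 were tested. In edgeR 4 fell and 1 rose, 12.2% of those tested beside the 6.56% of all genes, and the median log2 fold change was -0.22. CBX2, a Polycomb subunit that keeps HOX and other patterning genes silent, was at 61.1, 64.5 and 65.2 CPM at day 45 against 28.1, 29.99 and 28.95 CPM at day 85. CBX2 fell 2.19-fold (log2 fold change -1.13 with SE 0.10, adjusted p = 0.0155). EZH2, the Polycomb methyltransferase, was at 64.8, 71.0 and 64.05 CPM and then at 39.7, 40.2 and 33.8 CPM and fell 1.76-fold (adjusted p = 0.0235).

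From the hedgehog pathway, GLI1, a target and effector of the signal, was at 43.0, 43.6 and 37.95 CPM and then at 9.51, 20.9 and 13.05 CPM. GLI1 fell 2.86-fold (log2 fold change -1.51 with SE 0.28, adjusted p = 0.0359), and the signal transducer SMO fell 1.55-fold (adjusted p = 0.0467). ECE1, which processes endothelin to its active form, was at 80.5, 53.1 and 117 CPM and then at 192, 199 and 192 CPM and rose 2.33-fold (adjusted p = 0.0486). With upper-quartile scaling, library totals, no filter, the replicate block or log2 FPKM, 0 genes of the list were called higher. RLE scaling, the filter of 1 CPM in 3 libraries and limma-voom each called 1 higher, and DESeq2 called 4. LDB1, the cofactor that binds LIM homeobox proteins, was among the most abundant of the list per length, at 75.4 FPKM at day 45 and 80.8 FPKM at day 85, and did not pass (log2 fold change 0.13 with SE 0.13, adjusted p = 0.553). Without day 85 replicate 2, 3 of the 41 tested genes of the list rose and 13 fell, beside 1884 and 1528 of all 15271 tested genes. Without each other library in turn 0 or 1 of the list passed, with 9 to 15 at an unadjusted p under 0.05. Those fits called from 0 to 118 genes over the whole table, so calls were lost across it and not only in the list.

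**Figure D5:**
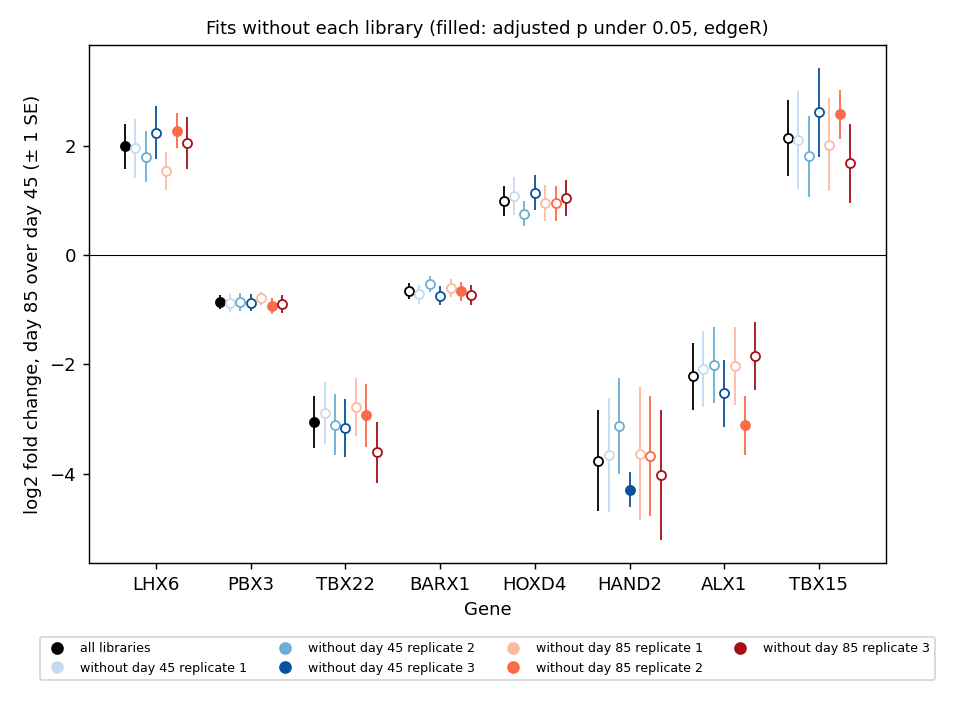
Log2 fold change (day 85 over day 45, bars of 1 SE, edgeR) of 8 members with all libraries (black) and without each library in turn (blues for day 45, reds for day 85); filled points have an adjusted p under 0.05. LHX6, PBX3 and TBX22 are filled with all libraries and without day 85 replicate 2 and open in the other fits, and HAND2 is filled without day 45 replicate 3 alone.

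The remaining untested members outside the HOX clusters were few in counts. Of the 36 members that did not pass the filter, 25 were HOX genes and 11 were not, and the highest count any of the 36 reached in a library was 38, for SIX6. LHX9 had 11 counts at day 45, all in replicate 3, and 22 at day 85. TBX21, the T-box factor of T and NK cells, had 4 counts at day 45 and 17 at day 85, beside summed T and NK cell markers of 3.18, 4.40 and 9.75 CPM and then 8.27, 12.6 and 6.92 CPM. These counts are too few for a comparison of the ages.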

How the data were processed

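The 6 libraries hold total RNA depleted of ribosomal RNA, with the second cDNA strand degraded, per the labels' protocols. The submitters' processing notes name HISAT2. The sources used here name no counting program, strand setting, genome build or annotation. Per the file headers, the authors deposited read counts for each gene and, beside them, FPKM for the same 6 libraries in 1 table. For 10748 genes with at least 50 counts in every library, the deposited FPKM equalled the count over the library total times a factor per gene, within 0.00179%, so FPKM holds no further normalization between libraries.

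Members and lists were chosen with earlier results of these data known. Members matched the table's own gene names. A few genes are counted but not reported singly here. For other genes, 1774 rows without a name took one from a table of IDs and symbols; where IDs share a symbol, the row with the most counts carries it. The count test was that of edgeR 4.0.16, run in R 4.3.3 (low counts removed by filterByExpr with age as the group and a minimum count of 10, TMM, robust dispersions, quasi-likelihood F test, age as the only factor, Benjamini-Hochberg adjustment over all 15022 tested genes, threshold 0.05). The SE is the size of the log2 fold change over the square root of F. Levels are TMM-normalised CPM; levels between genes use FPKM. Genes named in full were those past the threshold, LHX6 and TBX22, and the 3 most abundant tested genes of each role group per length (5 for HOX), and of the signals and partners those past the threshold and the 2 most abundant; others were chosen after their values were seen. As alternatives, the scaling was changed to RLE, upper quartile or library totals, the filter to none or to 1 CPM in 3 libraries, and the tool to DESeq2 1.42.0 or limma-voom (limma 3.58.1); further ones were limma-trend on log2 FPKM with pseudocounts of 0.1 and 1, the replicate number as a block, and leaving out each library. No pair of libraries was a duplicate (chi-square over its degrees of freedom at least 20.8). The test was tried 5 times on simulated counts of 15022 genes, of which 200 were changed, with library sizes and dispersions taken from these data. It found 19% of the 2-fold changes and 76.4% of the 4-fold changes, with 6.42% false calls. No simulated library stood apart as day 85 replicate 2 did, and few genes were changed, so these rates may not hold for the real libraries.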

Additional observations from a re-analysis of the deposited data

How the results depend on the processing

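Scaling, filter and tool moved few directions among the named genes, and the number of calls depended on the libraries. DESeq2 called 2064 genes higher and 1770 lower over the whole table, 12 members, 1 HOX gene, 7 jaw factors, 3 TALE genes and 17 signals and partners; limma-voom called 1 jaw factor. In the fits that left out 1 library, calls over the whole table ran from 0 to 1884 higher and from 0 to 1528 lower, and calls among members from 0 to 12, jaw factors from 0 to 8, TALE genes from 0 to 3, and signals and partners from 0 to 16; the highest value came without day 85 replicate 2 in each case. HOX genes had 0 calls in these fits, with 1 or 2 at an unadjusted p under 0.05. Deviations from the mean of the age correlated at 0.013, 0.25 and 0.04 between same-numbered libraries, and at -0.273 to 0.261 between the others. The labels do not say whether the numbers pair the samples, and correlations among 3 libraries per age cannot decide it. With the replicate number as a block in edgeR, 465 genes were higher and 217 lower over the whole table, and 3 signals and partners passed. ALX1, which met the filter on low counts through day 45 alone, then passed (adjusted p = 0.0475), as did TBX15, while TBX22 did not (adjusted p = 0.0519).

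Signs changed for genes that did not pass. The log2 fold change of HOXB2 became 0.21 in limma-voom, 0.12 with the replicate block, 1.01 without day 45 replicate 1, and 0.19 and 0.02 on FPKM with pseudocounts of 0.1 and 1. HOXD9 became -0.10 without day 45 replicate 2 and -0.04 without day 85 replicate 2, LHX8 0.10 without day 45 replicate 2, and SIX4 -0.14 without day 85 replicate 3. TBX2 became -0.0038 with upper-quartile scaling, -0.01 with library totals, -0.0042 with no filter, and -0.01, -0.15 and -0.14 without day 45 replicates 1 and 3 and day 85 replicate 2. In the fits that left out 1 library these values ran from -0.66 to 1.01 for HOXB2, -0.10 to 0.59 for HOXD9, -0.65 to 0.10 for LHX8, -0.14 to 0.57 for SIX4 and -0.15 to 0.23 for TBX2. Over all settings, signs also changed for BARX2 (-0.97 to 1.02), HOXD1 (-0.49 to 0.06), MSX1 (-0.45 to 0.74) and SHOX (-1.42 to 0.17). The cause was not tested. At these depths, members at or under 1 CPM rest on few counts.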

Other observations

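The order of HOX genes on the deposited coordinates was not the usual one in every cluster. On chromosome 12, from 24742221 to 24905884, the table lists HOXB1, HOXB2, HOXB3 and HOXB4, then HOXB9, HOXB8, HOXB7, HOXB6 and HOXB5, then HOXB13. On chromosome 5, HOXC12 lies before HOXC13, and HOXC6 and HOXC5 are 450.8 kb apart, whereas HOXD genes and HOXA genes run in numerical order. The counts of a gene do not depend on this order, but statements on neighbours hold for these coordinates alone.

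Some rows whose symbol comes from the table of IDs are not members. The row given as MEIS2 was listed at 0 in every library, beside 5 TALE genes that were all tested. The rows given as HOXA9, HOXA10 and HOXC11 were also at 0.

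Summed levels of the other marker lists were as follows. Osteoblast markers stood at 43560, 49910 and 31950 CPM at day 45 and at 47080, 83560 and 53390 CPM at day 85. Schwann cell and neuron markers stood at 331, 169 and 196 CPM and then at 194, 2263 and 172 CPM, with day 85 replicate 2 far above the others. Erythroid and blood progenitor markers ranged from 615 to 968 CPM at day 45 and from 900.2 to 2964 CPM at day 85. Tendon and synovium markers ranged from 520 to 1087 CPM and from 163 to 411 CPM. Epithelium markers did not exceed 34.1 CPM in any library.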
